A study of Mus musculus with 46 samples.

Results

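The 9 genes described here belong to the pathway of the transcriptional coactivators YAP and TAZ and their TEAD partners. They are the target genes Ccn1 and Ccn2, the regulators Amotl2, Ajuba and Lats2, the coactivator genes Yap1 and Wwtr1 (which encodes TAZ), and the transcription factor genes Tead1 and Tead4. They were taken by name from the 55359 genes of the deposited count table, and each name belonged to 1 gene identifier (ENSMUSG00000028195.5 for Ccn1 and ENSMUSG00000019997.12 for Ccn2). In adult mouse hearts with floxed Lmna, the gene of the nuclear lamina proteins lamin A and C, Ccn1 and Ccn2 were higher at 2 weeks after tamoxifen than in Lmna +/+ hearts. These 2 of the 9 genes passed the test at that time in a time course made with 1 library kit. There 29.2% of all genes tested passed, and none of the other 7 did. Both calls were lost without 1 of the F/F libraries. With a second kit, also at 2 weeks but against Lmna F/+ hearts, edgeR called neither gene. In its hearts with intact cGas the log2 fold change was -0.13 for Ccn1 and 1.19 for Ccn2.

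The data are RNA sequencing of hearts in 46 libraries, all from mice labelled Myh6MCM Tg/0 (My6MCM in the labels of the F/F time course libraries). This transgene is known as a tamoxifen-inducible Cre recombinase under the cardiomyocyte promoter of Myh6, so other cells of the heart would keep their floxed Lmna. All mice, controls included, were given tamoxifen at 6 to 8 weeks of age (100 µL of a 4 mg/mL solution a day for 4 days). For every sample the records also give perfusion with 100 mM KCl. A time course of 26 libraries was made with the NEBNext kit, which covers whole transcripts: 4 Lmna F/F and 5 Lmna +/+ libraries at 1 week after tamoxifen, 2 and 3 at 11 days, and 5 and 7 at 2 weeks. The other 20 libraries were made with the QuantSeq kit, which reads a tag near the 3' end of each transcript, all at 2 weeks: 6 Lmna F/+ and 6 Lmna F/F libraries with cGas +/+, and 4 Lmna F/+ and 4 Lmna F/F libraries with cGas null/null. cGas encodes a sensor of DNA in the cytosol. The QuantSeq control therefore carries 1 floxed allele, unlike the wild-type control of the time course.

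Total counts were 8477358 to 25856892 per NEBNext library and 22099181 to 33993289 per QuantSeq library. Whether every library is of its own mouse is not stated in the labels, and the p-values cover the spread among libraries, which may in part be technical. Lmna itself was at 27.01 to 36.9 normalised CPM in F/F and 44.98 to 67.7 in +/+ libraries at 1 week, and at 42.2 to 108 and 105 to 125 at 2 weeks, and it was called in no comparison of either kit (edgeR adjusted p = 0.0983 for -0.46 ± 0.21 on the log2 scale at 2 weeks, and 0.700 for -0.13 ± 0.16 in QuantSeq with cGas). The Lmna estimate was -0.82 ± 0.22 at 1 week (edgeR adjusted p = 0.315) and -0.67 ± 0.30 at 11 days (adjusted p = 0.558). At 11 days the 2 libraries labelled F/F, at 58.3 to 58.4, were below the wild-type median of 106.5. They lay inside the wild-type range of 52.05 to 118, so the ranges of Lmna did not separate them from their controls. The labels do not give the floxed exons, and a 3' tag outside them checks nothing. In the QuantSeq libraries Cgas was at 0.609 to 1.20 normalised CPM in F/F cGas null and 1.97 to 3.79 in F/F cGas +/+ libraries, groups that did not overlap. The defining cardiomyocyte markers were present in every group, with Actc1, Tnnt2 or Tnni3 the highest. Atrial markers were uneven: in 2 of the 3 wild-type libraries at 11 days Sln was at 39.7 and 141 normalised CPM, against 0.451 to 1.46 in the other 3 libraries of that time. Before TMM scaling Sln was also over 10 CPM in 4 of 7 wild-type and 2 of 5 F/F libraries of 2 weeks and in 11 of 20 QuantSeq libraries (up to 536 normalised CPM), but in none of 1 week.

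When the Hippo kinases LATS1 and LATS2 are active they phosphorylate YAP and TAZ, which then stay in the cytoplasm. Unphosphorylated YAP and TAZ enter the nucleus and, bound to TEAD factors on DNA, activate target genes such as Ccn1 and Ccn2. In the heart the pathway is known for its part in cardiomyocyte growth, in the response to mechanical load and in fibroblast activation. Its activity is set largely by phosphorylation and location of the proteins, which RNA levels do not measure.

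TEAD factors bind the hexamer CATTCC, or GGAATG when read on the opposite strand. RefSeq promoter windows, from 250 bases before to 50 after a start site on build GRCm38.p6, were on hand for 6 of the 9 genes (Ccn1, Amotl2, Ajuba, Lats2, Yap1 and Wwtr1). All 6 genes held the hexamer on either strand in at least 1 window, against 16.6% of the 27025 genes with a window. Of the 18 other YAP and TAZ target genes listed further on, 12 had a window and 4 held it. A match is a description of the letters and not a measured site. The windows of Ccn1, Amotl2 and Ajuba are shown because the first gene rose at 2 weeks and the other two, which hold the same hexamer, were not called. Each is the 250 bases before the start, in the gene's sense, with the hexamer in capitals. Ccn1 is at chr3:145649986-145650235 on the minus strand, Amotl2 at chr9:102717554-102717803 on the plus strand and Ajuba at chr14:54577662-54577911 on the minus strand.

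Ccn1: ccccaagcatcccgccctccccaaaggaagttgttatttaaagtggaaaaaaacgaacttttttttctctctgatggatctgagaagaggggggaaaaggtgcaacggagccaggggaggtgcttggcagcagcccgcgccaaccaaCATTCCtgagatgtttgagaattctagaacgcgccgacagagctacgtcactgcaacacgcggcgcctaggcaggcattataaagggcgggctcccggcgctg

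Amotl2: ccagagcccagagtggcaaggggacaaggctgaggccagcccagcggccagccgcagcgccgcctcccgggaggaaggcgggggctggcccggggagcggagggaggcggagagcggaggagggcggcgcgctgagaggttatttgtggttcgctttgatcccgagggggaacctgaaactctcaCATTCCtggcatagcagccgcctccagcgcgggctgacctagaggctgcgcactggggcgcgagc

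Ajuba: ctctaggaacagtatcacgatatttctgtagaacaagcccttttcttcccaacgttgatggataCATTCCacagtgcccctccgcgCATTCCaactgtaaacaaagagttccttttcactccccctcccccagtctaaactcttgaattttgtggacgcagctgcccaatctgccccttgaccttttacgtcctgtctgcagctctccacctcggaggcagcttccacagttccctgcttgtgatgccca

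The hexamer of Ccn1 begins 103 bases before the start and that of Amotl2 65 bases before it, while Ajuba has a pair that begin 186 and 164 bases before the start. In Yap1 it begins 141 bases before the start, and in Wwtr1 a single copy lies in both annotated windows, 136 or 170 bases before their starts. In Lats2 it was found only after the start of 1 of its 2 windows.

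Levels of different genes were compared per length, as length-scaled transcript shares (TPM), over the 12 NEBNext libraries of 2 weeks. Ccn2 was the highest of the 9 genes with a median of 83.0 TPM, and it was above Ccn1 (median 35.2 TPM) in 12 of 12 libraries. Yap1 and Wwtr1 lay close together at medians of 22.8 and 22 TPM, with Yap1 the higher in 8 libraries, and Ccn1 was above Yap1 in 7, so the order among these 3 was not fixed across libraries. Amotl2 followed at 11.6 TPM and Tead1 at 8.55 TPM, in that order in 11 of 12 libraries. Lats2 (3.70 TPM), Ajuba (2.06 TPM) and Tead4 (0.886 TPM) were the lowest. By 3' tags the order over the 20 QuantSeq libraries differed: Ccn2 (median 52.1 CPM) and Wwtr1 (46.4 CPM) led, Tead1 (36.8 CPM) was above Yap1 (22.7 CPM) in 20 of 20 libraries, and Ccn1 was at 15.2 CPM. Ajuba (1.78 CPM) and Tead4 (0.512 CPM) were again the lowest.

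Changes with genotype and time were tested on counts. Levels below are counts scaled to a common library total after TMM scaling (normalised CPM), which allow a gene to be compared between libraries of 1 kit. Fold changes are from edgeR's quasi-likelihood test, on the log2 scale with their standard errors, and a gene is called at a Benjamini-Hochberg adjusted p under 0.05 over all genes tested in that kit. All 9 genes passed the filter on low counts in both kits.

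Ccn1 (also Cyr61) encodes a secreted matricellular protein that binds integrins. At 2 weeks it stood at 23.4, 63.9, 127, 97.8 and 74.9 normalised CPM in the 5 F/F libraries, and from 14.6 to 60.1 with a median of 25.4 in the 7 wild-type libraries. In 4 of the 5 F/F libraries it was above every wild-type library, and F/F replicate 1 lay within the wild-type range. On the log2 scale Ccn1 rose by 1.04 ± 0.27 (2.05-fold, edgeR adjusted p = 0.00559).

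Ccn2 (also Ctgf), a related matricellular protein linked to fibrosis, was at 102, 268, 587, 482 and 356 normalised CPM in the F/F libraries, and from 64.7 to 271 with a median of 90.1 in the wild-type libraries. F/F replicate 1 was again the lowest of its group, F/F replicates 3 to 5 were above every wild-type library, and wild-type replicate 6, at 271 normalised CPM, was just above F/F replicate 2. On the log2 scale Ccn2 rose by 1.34 ± 0.31 (2.53-fold, edgeR adjusted p = 0.00224).

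**Figure D1:**
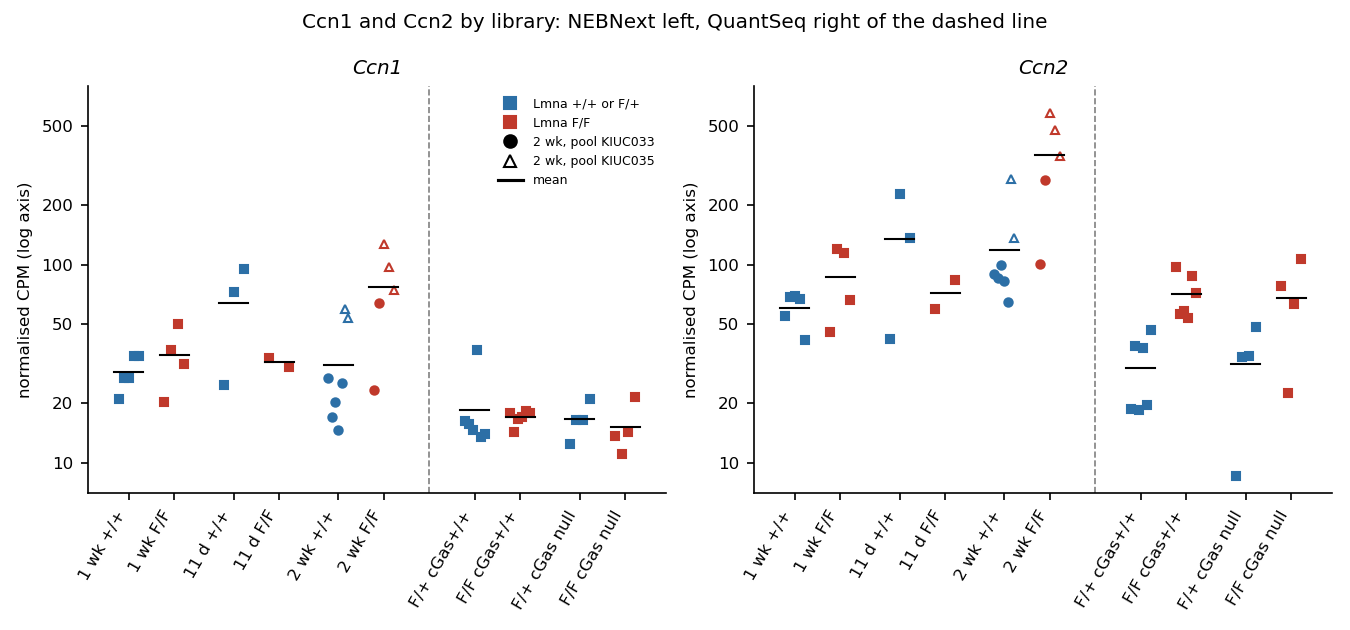
Normalised CPM (log axis) of Ccn1 and Ccn2 in each library, by genotype and time after tamoxifen (NEBNext, left of the dashed line) and by Lmna and cGas genotype at 2 weeks (QuantSeq, right). Each point is a library, bars are group means, blue is Lmna +/+ or F/+ and red Lmna F/F, with open triangles for the second sequencing pool of 2 weeks. For Ccn1, 4 F/F libraries of 2 weeks lie above every wild-type library, and the 6 QuantSeq F/F cGas +/+ libraries lie above their controls for Ccn2 but not for Ccn1.

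These 2 of 9 genes were the only members called at 2 weeks, where 29.2% of the 15627 genes tested were called (16.2% as higher and 13% as lower), so the share of called members was near that of all genes. The median log2 fold change over the 9 genes was 0.07, and 0.04 over all genes tested. The 2-week libraries were sequenced in 2 pools, and both genes were higher in the second pool in either genotype. In pool KIUC033 (2 F/F and 5 wild-type libraries) Ccn1 was at 23.4 and 63.9 against 14.6 to 26.9 normalised CPM, and in pool KIUC035 (3 and 2 libraries) at 74.9 to 127 against 53.8 and 60.1. The reported fold changes include a pool term. Within KIUC033 alone neither gene was called (Ccn1 0.69, edgeR adjusted p = 0.193; Ccn2 0.96, adjusted p = 0.146), and within KIUC035 alone both were (Ccn1 0.85, adjusted p = 0.0125; Ccn2 1.40, adjusted p = 0.00516). Without the 6 libraries of either genotype rich in Sln, a choice made after seeing the data, both were called by edgeR (Ccn1 1.56, adjusted p = 0.00252, and Ccn2 1.47, adjusted p = 0.0217). These 6 include F/F replicate 1, the lowest F/F library for both genes, and F/F replicate 4, above every wild-type library for both. The estimates therefore depend on which libraries were left out, and a link with Sln was not tested. Without F/F replicate 2 the calls were lost (Ccn1 0.56, adjusted p = 0.169; Ccn2 0.92, adjusted p = 0.0620).

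At 1 week none of the 9 genes was called, against 0.0256% of all genes (4 genes by edgeR). By unadjusted p under 0.05 there were 1539 genes, of the 9 only Ajuba, and DESeq2 called none of the 9. Ccn1 was at 20.3, 37.2, 50.5 and 31.6 normalised CPM in F/F and 20.9, 26.7, 26.7, 34.8 and 34.7 in wild-type libraries, with overlapping groups and an estimated change of 0.22 ± 0.30 (edgeR adjusted p = 0.825). Ccn2 was at 46.01, 120.2, 114 and 66.5 against 55.03, 68.7, 69.6, 67.5 and 41.7, with 2 of the 4 F/F libraries above every wild-type library (0.41 ± 0.33, adjusted p = 0.688). The 9 genes had log2 fold changes of -0.21 to 0.54 and a median of 0.18, against -0.0048 over all genes.

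At 11 days none of the 9 genes was called by edgeR, nor was any other gene (0%, with 1302 genes, Ccn1 among them, at an unadjusted p under 0.05). Over all genes the count was 235 without wild-type replicate 1, 1 without any of labelled F/F replicate 2 and wild-type replicates 2 and 3, and 0 without labelled F/F replicate 1. Ccn1 was at 33.9 and 30.6 normalised CPM in the 2 libraries labelled F/F and 24.7, 72.5 and 95.2 in the 3 wild-type libraries, and Ccn2 at 59.6 and 83.7 against 42.4, 227 and 136. Both labelled F/F libraries lay inside the wild-type range for either gene, and both estimates were below 0 (-0.90 ± 0.42 for Ccn1 with adjusted p = 0.583, and -0.72 ± 0.47 for Ccn2 with adjusted p = 0.698). The wild-type libraries with the higher Ccn1 and Ccn2, replicates 2 and 3, are the same 2 that held atrial RNA. Without them the estimates were 0.32 for Ccn1 and 0.68 for Ccn2. The wild-type library left, at 24.7 and 42.4, was below both labelled F/F libraries for either gene. The turn of sign therefore follows from which libraries were left out. A link between atrial RNA and these levels was not tested. The groups of 2 of the 9 genes did not overlap, near the 18.1% of all genes tested whose 2 and 3 libraries did not: Amotl2 was at 19.4 and 18.5 in labelled F/F and 18.4, 17.9 and 17.1 in wild-type libraries, and Yap1 at 29.7 and 29.5 and 24.6, 28.3 and 28.4.

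Whether the effect itself differed between 2 weeks and 1 week was tested as an interaction. None of the 9 genes was called by edgeR, against 12.4% of all genes, and by unadjusted p under 0.05 only Ajuba passed. The effect on Ccn1 was larger at 2 weeks by 0.81 ± 0.41 (95% interval -0.04 to 1.66, edgeR adjusted p = 0.196) and that on Ccn2 by 0.93 ± 0.47 (interval -0.04 to 1.91, adjusted p = 0.191). Without F/F replicate 1 of 2 weeks, both differences were called (1.10, adjusted p = 0.0469, and 1.30, adjusted p = 0.0384).

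The second kit gave the same contrast at 2 weeks in other hearts, with Lmna F/+ as the control. Ccn2 ranged from 53.95 to 97.1 with a median of 65.2 normalised CPM in the 6 F/F cGas +/+ libraries, and from 18.4 to 46.9 with a median of 28.8 in the 6 F/+ cGas +/+ libraries. All 6 F/F libraries were above all 6 controls, which held for 1 of the 9 genes, while the groups of 3.07% of all genes did not overlap. The log2 fold change was 1.19 ± 0.37 (95% interval 0.43 to 1.95), and with an edgeR adjusted p of 0.0658 it was not called over 14812 genes, of which 4.63% were (686 genes, and 190 to 1169 with a library left out). The call changed with the settings: DESeq2 gave 1.19 with an adjusted p of 0.0489, and a fit of only these 12 libraries gave 1.32 with 0.0112.

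Ccn1 did not separate these groups of QuantSeq libraries. It ranged from 14.4 to 18.3 with a median of 17.4 normalised CPM in F/F and from 13.6 to 36.98 with a median of 15.2 in F/+ libraries. The highest value belonged to 1 control library, F/+ cGas +/+ replicate 4, and the next highest control was at 16.3. That control held Sln at 357 normalised CPM. Sln was also at 342, 214.5 and 92.8 in F/F cGas +/+ replicates 3, 5 and 6, and at 119 in F/+ cGas +/+ replicate 6. A link between Sln and Ccn1 was not tested. The log2 fold change of Ccn1 was -0.13 ± 0.22 (interval -0.59 to 0.32, edgeR adjusted p = 0.801), and 0.18 without F/+ cGas +/+ replicate 4. The upper bound of the interval is below the NEBNext estimate of 1.04 for Ccn1, but the kits differ in control genotype, in the part of the transcript read and in the hearts, and the difference between kits was not tested.

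In cGas null hearts Ccn2 was at 78.1, 22.6, 63.5 and 107 normalised CPM in the 4 F/F libraries and 8.55, 34.1, 34.6 and 48.5 in the 4 F/+ libraries. Of the 4 F/F libraries, 3 were above every F/+ library, and F/F replicate 2 lay within their range. The log2 fold change was 1.16 ± 0.44 (interval 0.24 to 2.07, edgeR adjusted p = 0.305). None of the 9 genes was called by edgeR or DESeq2, against 0.527% of all genes by edgeR, and Ccn2 was the only one at an unadjusted p under 0.05. Ccn1 was at 13.6, 11.1, 14.2 and 21.6 against 12.4, 16.4, 16.5 and 21.02, and the groups overlapped (-0.11 ± 0.28, adjusted p = 0.942).

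The estimates for Ccn2 with and without cGas, 1.19 and 1.16, compare separate groups of libraries but come from the same fit, with a shared sex term. Their difference was -0.03 ± 0.59 (edgeR adjusted p = 0.9998). Its interval of -1.25 to 1.20 is too wide to show that they are equal. For Ccn1 the difference was 0.02 ± 0.36 (interval -0.73 to 0.78). No gene at all was called for this difference by edgeR or DESeq2 (0%, with 215 at an unadjusted p under 0.05). The comparisons of cGas null with cGas +/+ hearts called none of the 9 genes and none of all genes by edgeR in F/F (0%, 850 at an unadjusted p under 0.05, and 5 called by DESeq2) or in F/+ hearts (0%, 616 at an unadjusted p under 0.05). All 4 F/+ cGas null libraries are from males, and sex was a term in the fit. The 9 genes ranged from -0.17 (Ccn1) to 0.62 (Ajuba) in F/F and from -0.19 (Ccn1) to 0.47 (Lats2) in F/+ hearts.

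**Figure D2:**
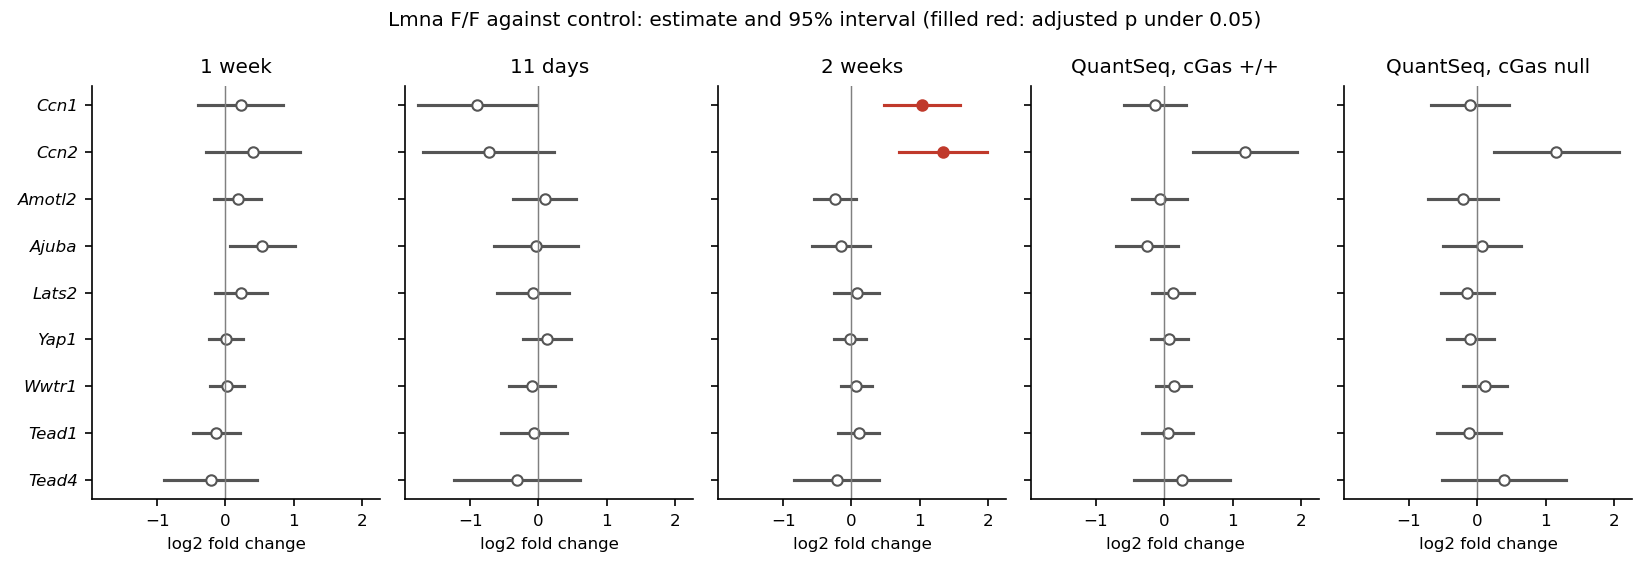
Log2 fold change of each of the 9 genes in Lmna F/F against control hearts (x axis), with 95% intervals as bars, in the 3 NEBNext times and the 2 QuantSeq cGas backgrounds. Filled red points passed an adjusted p of 0.05. Ccn1 and Ccn2 at 2 weeks are the only filled points. Among the open points, the intervals of Ccn2 in both QuantSeq panels and of Ajuba at 1 week lie above 0, and that of Ccn1 at 11 days lies below 0.

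Among the regulators, Amotl2 encodes an angiomotin family protein that binds YAP and is itself a YAP target. At 2 weeks it was at 30.9, 25.3, 30.7, 23.1 and 24.6 normalised CPM in F/F libraries, and from 22.9 to 39.8 with a median of 28.4 in wild-type libraries. All 5 F/F libraries lay inside the wild-type range, whose 2 highest values, 38.0 and 39.8, are the wild-type libraries of pool KIUC035. Its log2 fold change was -0.24 ± 0.15 (edgeR adjusted p = 0.232). Within pool KIUC035 it was called as lower (-0.55, adjusted p = 0.0213) and within KIUC033 it was 0.14 (adjusted p = 0.527). In QuantSeq the groups overlapped, at 4.17 to 12.6 and 7.71 to 11.9 normalised CPM with cGas and 7.78 to 10.8 and 8.78 to 13.2 without.

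Ajuba encodes a LIM domain adaptor that binds LATS kinases and restrains them. At 1 week 3 of the 4 F/F libraries were above every wild-type library, at 5.34, 2.66, 3.88 and 4.18 normalised CPM against 3.19, 2.38, 2.87, 2.45 and 2.87. The log2 fold change was 0.54 ± 0.23, and after adjustment over all genes it was not called (edgeR adjusted p = 0.448). At 2 weeks the estimate was -0.16 ± 0.21 (adjusted p = 0.604), with F/F libraries at 2.86 to 4.43 and wild-type libraries at 3.11 to 7.01 normalised CPM. The difference between the times was -0.70 ± 0.31 (adjusted p = 0.139). In QuantSeq Ajuba gave the largest estimate of any member for cGas loss in F/F hearts, at 1.92 to 2.40 normalised CPM in cGas null and 0.958 to 1.93 in cGas +/+ libraries (0.62 ± 0.24, adjusted p = 0.850). The groups overlapped and the gene was not called.

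Lats2 encodes 1 of the 2 kinases that phosphorylate YAP and TAZ, and is also a YAP target. At 2 weeks it was at 16.4, 10.3, 10.6, 6.25 and 9.03 normalised CPM in F/F libraries, and from 7.75 to 12.7 with a median of 11.2 in wild-type libraries. Replicate 1 was above and replicate 4 below every wild-type library (0.08 ± 0.16, edgeR adjusted p = 0.753). In F/+ hearts Lats2 was at 10.01, 17.9, 16.6 and 16.5 in cGas null libraries, and from 9.79 to 17.4 with a median of 12.1 in cGas +/+ libraries, overlapping groups with a log2 fold change of 0.47 ± 0.19 (adjusted p = 0.993).

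**Figure D3:**
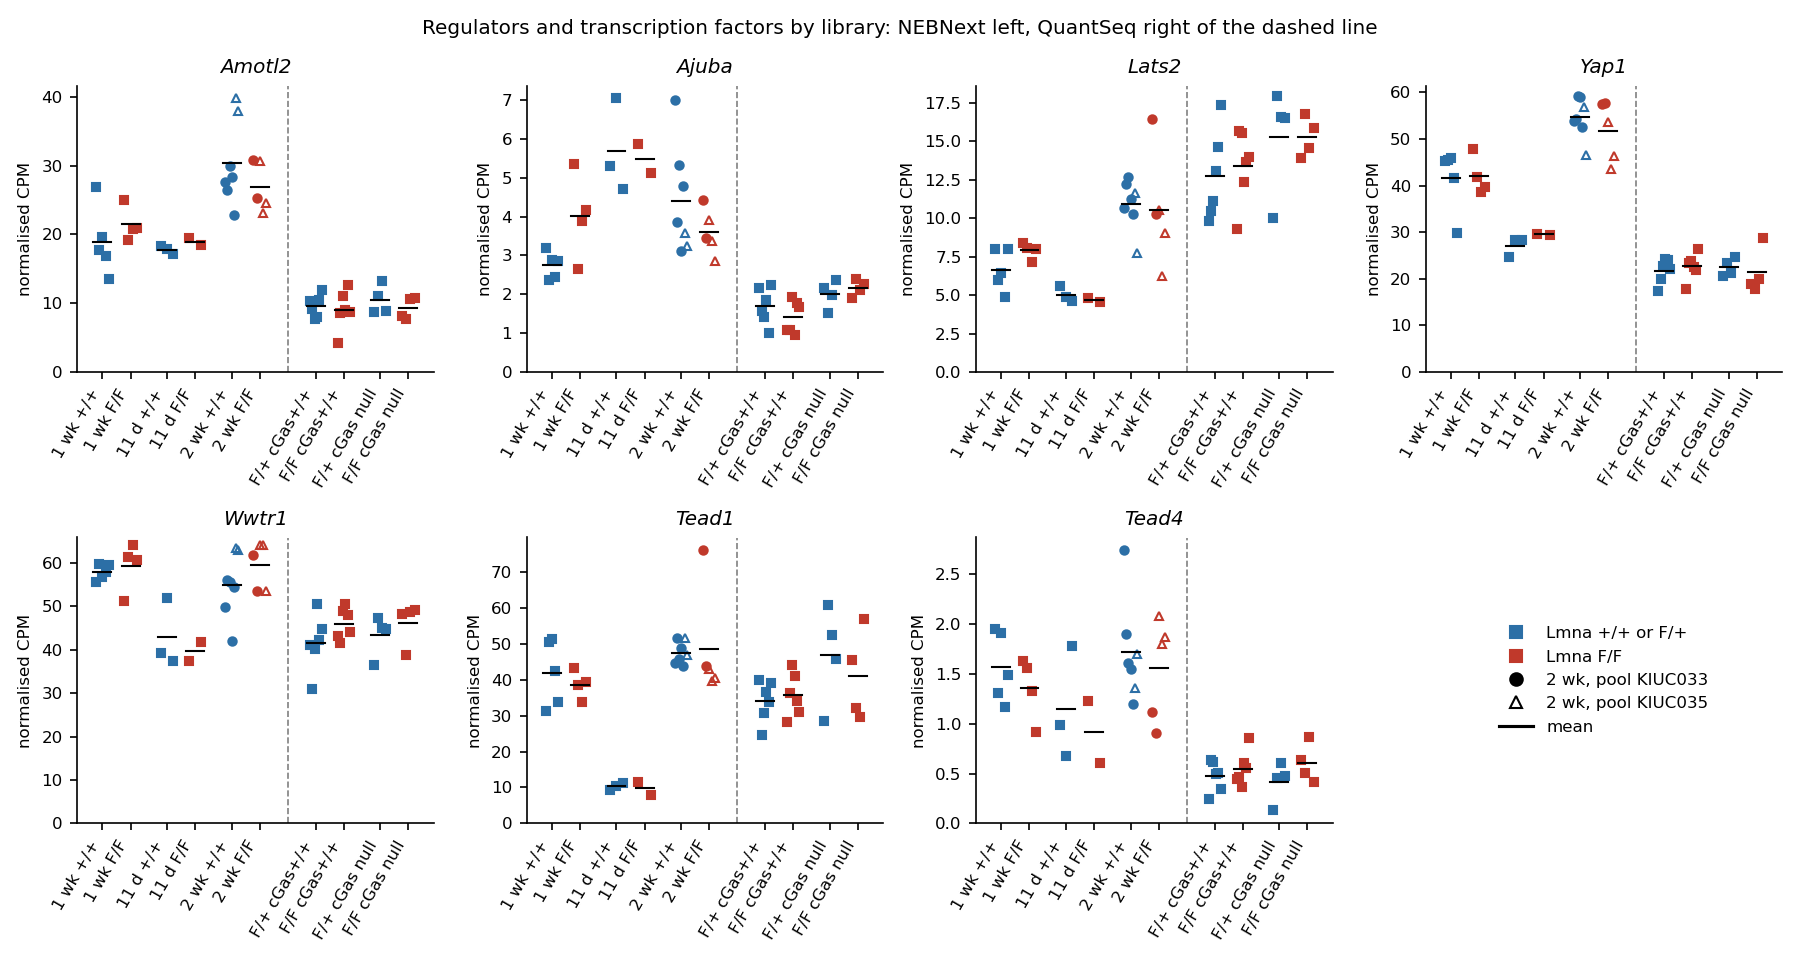
Normalised CPM of the 3 regulators, 2 coactivators and 2 TEAD genes in each library, with axes from 0. Points are libraries, bars are group means, blue is Lmna +/+ or F/+ and red Lmna F/F. F/F and control points overlap in every pair of groups except Amotl2 and Yap1 at 11 days, where 18.1% of all genes did not overlap either, and Tead1 is at 7.86 to 11.7 normalised CPM in all 5 libraries of 11 days.

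The coactivator genes had the estimates nearest to 0 of the 9 genes at 2 weeks. Yap1 was at 57.5, 57.8, 53.7, 43.6 and 46.3 normalised CPM in F/F libraries of 2 weeks, and from 46.6 to 59.3 with a median of 54.4 in wild-type libraries. Its log2 fold change was -0.02 ± 0.11 with a 95% interval of -0.26 to 0.21 (edgeR adjusted p = 0.902). Wwtr1 was at 61.9, 53.5, 64.1, 64.2 and 53.5 against a range from 41.97 to 63.5 with a median of 55.6, a log2 fold change of 0.07 ± 0.11 with an interval of -0.15 to 0.30 (adjusted p = 0.649). On log2(TPM + 1) values Wwtr1 was called as higher at 2 weeks (0.35, limma adjusted p = 0.0430), on a scale where the median of all genes also moved up, to 0.21. In QuantSeq the estimates with cGas were 0.07 ± 0.13 for Yap1 and 0.14 ± 0.12 for Wwtr1.

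Per length, Yap1 made up 43.3% to 54.9% of the summed Yap1 and Wwtr1 TPM in F/F libraries of 2 weeks and 45.5% to 61.3% in wild-type libraries. In 1-week libraries the range was 40.4% to 51.3% in F/F hearts and 36.2% to 47.9% in wild type. These ranges overlapped between genotypes.

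Tead1, the main TEAD factor of cardiomyocytes, was at 76.1, 43.7, 43.1, 39.6 and 40.6 normalised CPM in F/F libraries of 2 weeks, and from 43.9 to 51.5 with a median of 46.8 in wild-type libraries. F/F replicate 1 stood above every other library of the time course, while the other 4 F/F libraries were below every wild-type library. Its log2 fold change was 0.11 ± 0.15 (edgeR adjusted p = 0.629), and -0.16 without replicate 1. That library was also the highest in Lats2 and the lowest F/F library in Ccn1 and Ccn2.

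Tead4 was the least expressed member, at 0.911 to 2.08 normalised CPM in F/F hearts and 1.20 to 2.74 in wild-type libraries of 2 weeks (-0.21 ± 0.30, edgeR adjusted p = 0.633). In QuantSeq it was at 0.137 to 0.865 over all 20 libraries. Its 95% interval at 2 weeks was -0.83 to 0.41.

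At 11 days Tead1 was at 11.7 and 7.86 normalised CPM in F/F and 9.25, 10.4 and 11.3 in wild-type libraries, against 31.3 to 51.3 at 1 week and 39.6 to 76.1 at 2 weeks over both genotypes. Lats2, Yap1, Wwtr1 and Tead4 were also at their lowest NEBNext group means at 11 days. The 11-day libraries are a sequencing pool of their own, as are those of 1 week, and the 2-week pools hold no other time. For levels at any of these times, time and pool cannot be told apart. Within the TEAD family, Tead1 was 42.5% to 65.9% of the summed TPM of Tead1 to Tead4 in F/F hearts and 47.0% to 55.6% in wild-type libraries of 2 weeks, but 13.9% to 21.8% and 17.6% to 20.1% at 11 days. There Tead3, at 33.6% to 50.8% and 38.7% to 42.6%, was the largest share in 3 of the 5 libraries and Tead2 in the other 2.

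The summed TPM of the 4 TEAD genes was 19.1 to 25.4 in F/F hearts and 12.7 to 17.5 in wild-type libraries of 2 weeks, groups that did not overlap. TPM values carry no correction for the make-up of the RNA: with library totals in place of TMM scaling, the median difference of all genes at 2 weeks was 0.29, and 4373 genes were called as higher and 822 as lower, against 2537 and 2025. The TEAD sum was not tested. It has not been set against that shift, nor against the share of all genes whose groups did not overlap.

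**Figure D4:**
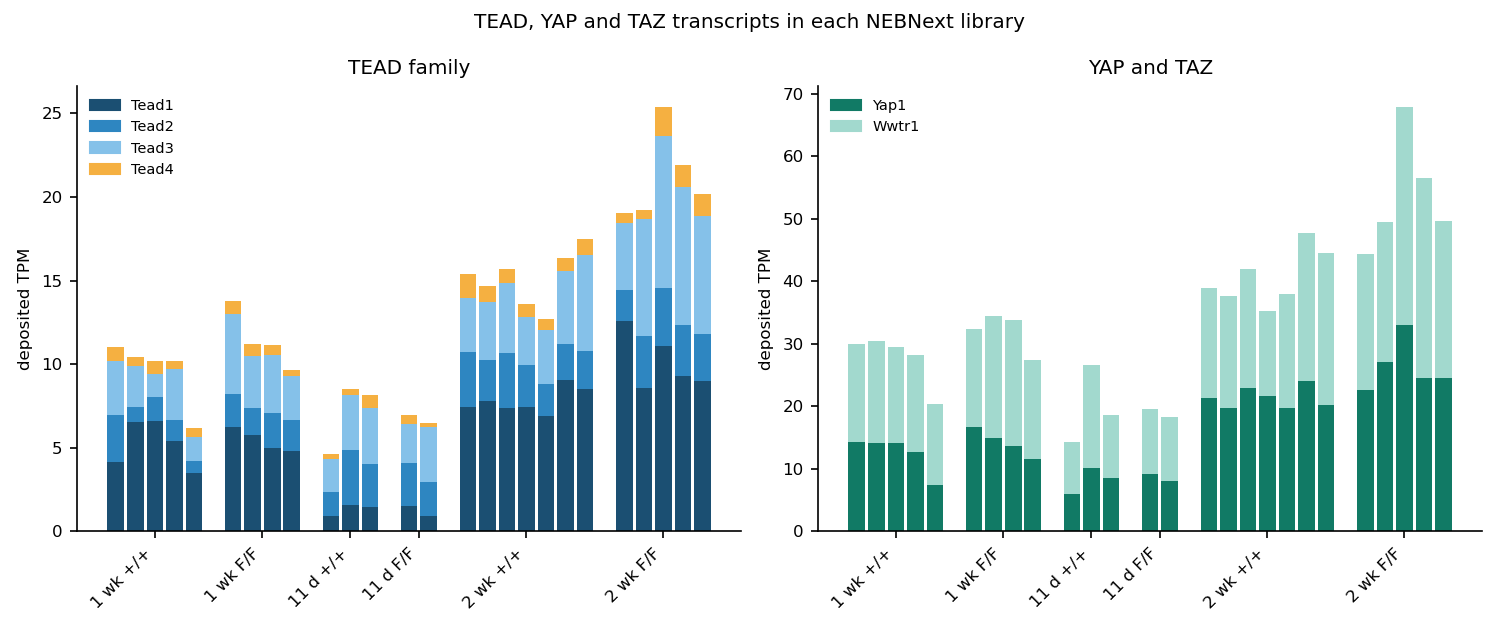
Deposited TPM of Tead1 to Tead4 (left) and of Yap1 and Wwtr1 (right), stacked for each NEBNext library and grouped by time and genotype. Each bar is a library. Tead1 is the largest TEAD share in all 21 libraries of 1 and 2 weeks and a smaller share than Tead3 in all 5 libraries of 11 days, and the 5 TEAD bars of 2-week F/F hearts are the tallest.

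Of 18 other genes known as YAP and TAZ targets, 17 could be tested at 2 weeks, and 7 were called as higher and none as lower, where 29.2% of all genes were called (16.2% as higher), with a median log2 fold change of 0.55 against 0.04 over all genes. The 4 of largest change were Fjx1, Ankrd1, Myof and Tgfb2. Ankrd1, a stress-responsive protein of the cardiomyocyte sarcomere and nucleus, was at 1805 to 5721 normalised CPM in F/F hearts and 678 to 2236 in wild-type libraries (1.62 ± 0.30, edgeR adjusted p = 0.000345). Tgfb2, a TGF-beta ligand, was at 5.89 to 9.92 against 2.00 to 4.72 (1.23 ± 0.24, adjusted p = 0.000566), and Myof, a ferlin of membrane repair, at 11.2 to 30.9 against 6.79 to 9.41 (1.34 ± 0.24, adjusted p = 0.000284). Fjx1 was near the floor, at 0.426 to 3.62 against 0.190 to 0.666 (1.87 ± 0.51, adjusted p = 0.00751), and lost its call without F/F replicate 2 or replicate 3. In pool KIUC033 alone none of the list was called.

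In QuantSeq with cGas, 16 of these genes could be tested and only Ankrd1 was called, at 1853 to 9000 normalised CPM in F/F and 708 to 2332 in F/+ libraries (1.51 ± 0.27, edgeR adjusted p = 0.00274). The list's median was 0.11, and -0.01 over all genes. Myof (0.55 ± 0.17, adjusted p = 0.0695) and Tgfb2 (0.45 ± 0.25, adjusted p = 0.342) were not called, and DESeq2 called 4 genes (Myof, Axl, Ccdc80 and Ankrd1). Without cGas none of 16 was called by edgeR, with Ankrd1 at 1.08 ± 0.34 (adjusted p = 0.163).

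Of 25 other genes of the Hippo kinase cascade and its adaptors, 8 were called as higher and 1 as lower at 2 weeks, with a median of 0.22. Their called share, 9 of 25, was near the 29.2% of all genes, whose median was 0.04. Rassf5, an adaptor of the MST kinases known from lymphocytes, was at 3.48 to 17.6 normalised CPM in F/F hearts and 1.86 to 3.38 in wild-type libraries (1.51 ± 0.21, edgeR adjusted p = 2.2e-05). Lats1, the partner kinase of Lats2, was at 13.3 to 16.1 against 6.96 to 9.10 (0.84 ± 0.16, adjusted p = 0.000390), and neither group pair overlapped. Nor did the groups of Mob1a, Myof, Tgfb2 and, among genes given below, Nf2 and Vgll3. The share of all genes whose groups did not overlap was not counted at 2 weeks, so no overlap is not shown to be particular to these genes. Mob1a, which activates the LATS kinases, and Rassf1, another MST adaptor, had log2 fold changes of 0.81 ± 0.14 (adjusted p = 0.000210) and 0.74 ± 0.19 (adjusted p = 0.00451).

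The gene called as lower was Nf2, which encodes merlin, an upstream activator of the cascade, at 47.6 to 53.3 normalised CPM in F/F hearts and 55.6 to 73.3 in wild-type libraries (-0.42 ± 0.15, edgeR adjusted p = 0.0341). The call was lost under library totals (-0.17, edgeR adjusted p = 0.463) and without wild-type replicate 2, 6 or 7 or F/F replicate 2, 3, 4 or 5. In QuantSeq with cGas none of the 25 genes was called by edgeR and 2 (Lats1 and Rassf1) by DESeq2, with Lats1 at 0.62 ± 0.18 (adjusted p = 0.0557) and Rassf5 at 0.70 ± 0.28 (adjusted p = 0.168). Among the other TEAD genes and vestigial-like cofactors, 1 of 4 tested, Vgll3, was called as higher at 2 weeks, near the 29.2% of all genes called (16.2% as higher). Vgll3 was at 3.87 to 12.7 normalised CPM in F/F hearts and 1.84 to 3.77 in wild-type libraries (1.32 ± 0.29, edgeR adjusted p = 0.00144).

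**Figure D5:**
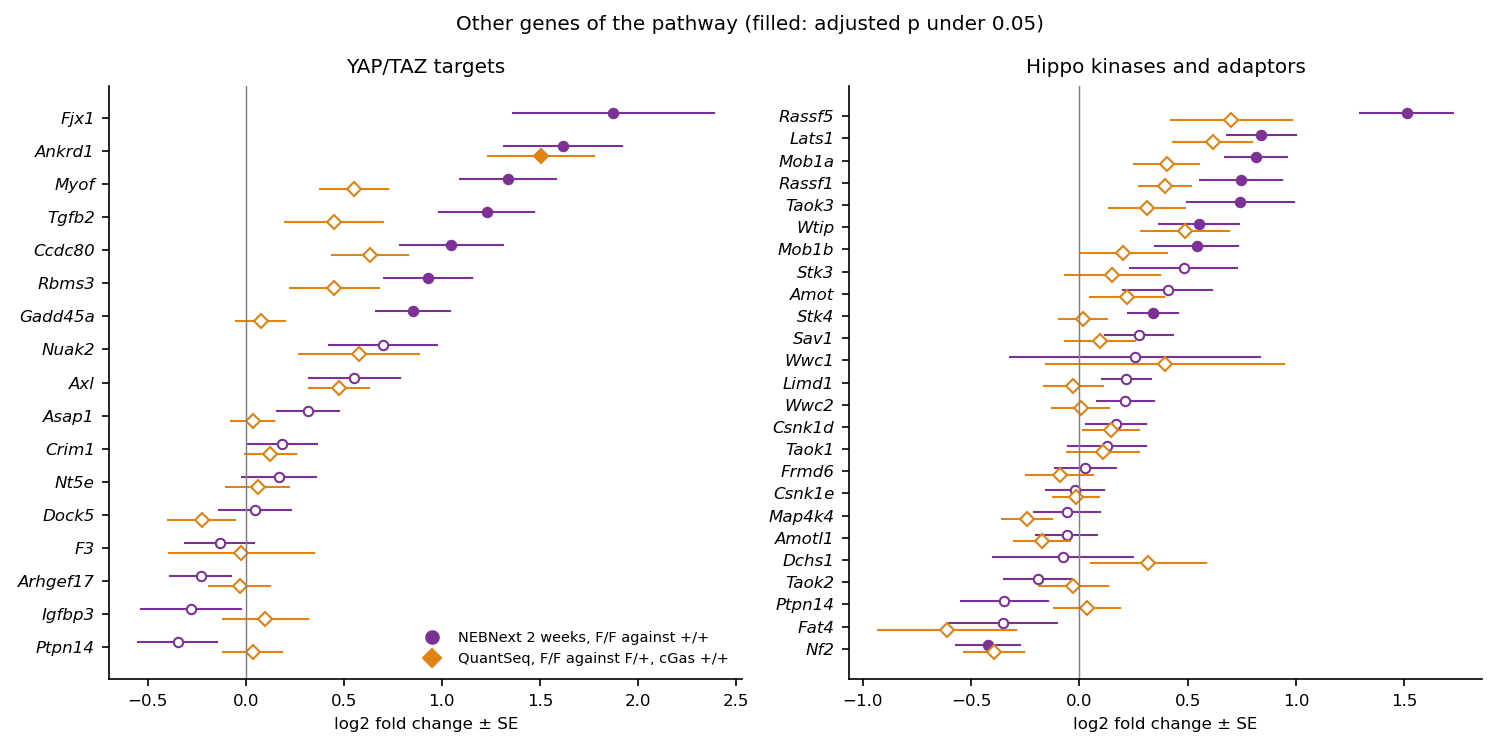
Log2 fold change ± SE (x axis) of each other YAP and TAZ target (left) and Hippo kinase or adaptor (right) that could be tested, in NEBNext at 2 weeks (circles) and QuantSeq with cGas (diamonds). Filled symbols passed an adjusted p of 0.05. Of the targets 7 circles and 1 diamond are filled, and of the Hippo genes 9 circles and no diamond.

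Markers of several cell types moved with the genotype at 2 weeks, when 16.2% of all genes tested were called as higher and 13% as lower. All 6 macrophage markers, led by Lyz2, were called as higher, and their summed level was 703 to 5044 TPM in F/F against 410 to 612 in wild-type libraries. Of the 5 activated fibroblast markers, led by Postn, 3 were called as higher (sum 37.0 to 415 against 13.6 to 44.3 TPM), and of 7 fibroblast markers 4 were called as higher and 1, Gsn, as lower. Of the 7 cardiomyocyte markers 6 were called as lower, with summed TPM of 52410 to 67260 in F/F against 61560 to 79320 in wild-type libraries, and 3 of 6 endothelial markers were called as lower. Of 6 smooth muscle and pericyte markers 1 was called as higher and 1 as lower, and none of 5 atrial or 4 epicardial markers was called. In QuantSeq with cGas, where 4.63% of all genes were called, 5 of 6 macrophage markers and 1 of 5 activated fibroblast markers were called as higher. None of 7 cardiomyocyte or 5 atrial markers was called there (atrial median 2.32). No marker of these lists was at 0 in both groups of 2 weeks. In whole hearts a change in the number of cells of a type and in the RNA per cell cannot be told apart, and the part of these shifts in the levels of Ccn1, Ccn2 and the listed genes was not tested.

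Within groups, the gene whose log2 level deviated most like that of Ccn1 over the 26 NEBNext libraries was Actb (Pearson r = 0.922 after subtracting group means), and for Ccn2 it was Hook2 (r = 0.887). Ccn1 and Ccn2 were each other's nearest member (r = 0.845), with Ccn2 at rank 34 of 15626 genes for Ccn1 and Ccn1 at rank 10 for Ccn2. For the remaining genes the nearest were Cuedc1 for Amotl2 (r = 0.860), Fam160b1 for Ajuba (0.671), Kif2a for Lats2 (0.810), Ptpn9 for Yap1 (0.786), Tmem88 for Wwtr1 (0.780), Tmem150c for Tead1 (0.870) and Irf1 for Tead4 (0.738). Over the 20 QuantSeq libraries the nearest gene to Ccn1 was a ribosomal RNA feature, 5_8S_rRNA (r = 0.853). For Ccn2 it was Ftl1 (r = 0.925), and Ccn1 was at rank 930 for Ccn2 (r = 0.572). Wwtr1 and Tead1 were each other's nearest member there (r = 0.698). No gene was nearest to the same member in both kits. The libraries share pools, depth and cell make-up, and the correlations are descriptions with no test.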

How the data were processed

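All 46 libraries of both kits entered, 26 NEBNext and 20 QuantSeq, and samples were grouped by the labels. The submitters' processing notes name STAR 2.7.9 and the build mm39. For the counting tool, annotation and strand setting nothing is given in the sources used here. Genes that overlap on opposite strands can therefore share reads. The authors deposited raw read counts per gene and a second table that holds TPM values for the NEBNext libraries. For the QuantSeq libraries the second deposited table holds CPM values, which equalled the counts scaled by each library's total within 0.01 in 20 of 20 columns. Every column was mapped to a sample, and both tables were joined by gene identifier.

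Each kit was fitted once with edgeR 4.0.16 in R 4.3.3 (TMM scaling, filterByExpr with a minimum count of 10 and a minimum total of 15, glmQLFit and glmQLFTest, Benjamini-Hochberg over all genes tested, threshold 0.05). The NEBNext fit had terms for sex and for the second pool of 2 weeks, and the QuantSeq fit a term for sex. Standard errors are the fold change over the square root of F, and intervals are at 95%. The fit was tested on simulated data. DESeq2 1.42.0, limma 3.58.1 (on counts, and on log2 of TPM + 1 or + 0.1), other scalings, no filter, single pools and leaving out each library were alternatives; leaving out libraries with Sln over 10 CPM (11 days, 2 weeks and QuantSeq with cGas) was chosen after seeing the data.

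The 9 genes and all lists were chosen with earlier results of these data known. Beside them the text names Lmna and Cgas, and of each pathway list up to 4 called genes of largest change in each direction at 2 weeks. It also names the gene most correlated with each member in NEBNext, and with Ccn1 and Ccn2 in QuantSeq. Of the markers it names the highest of the cardiomyocyte, macrophage and activated fibroblast lists, and Sln and Gsn. Genes that changed call under an alternative were named after their values were seen. No 2 libraries of a group agreed within sampling noise. Promoter windows came from RefSeq on GRCm38.p6, a build other than that of the counts; none was on hand for Ccn2, Tead1 and Tead4.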

Additional observations from a re-analysis of the deposited data

Results flagged for a closer look

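Over the 9 genes, 72 sets of libraries of 4 to 7 were examined for a value far from the rest, and 5 were found; chance gives about 1 in 20. Ccn1 was at 37.0 normalised CPM in QuantSeq F/+ cGas +/+ replicate 4, and the other 5 libraries of that group were at 13.6 to 16.3. Ccn2 was at 271 normalised CPM in wild-type replicate 6 of 2 weeks, against 136 in the next library and 64.7 in the lowest. Yap1 was at 29.9 normalised CPM in wild-type replicate 5 of 1 week, and 41.7 to 46.0 in the other 4. Wwtr1 was at 38.8 normalised CPM in QuantSeq F/F cGas null replicate 2, and 48.3 to 49.2 in the other 3. Tead1 was at 76.1 normalised CPM in F/F replicate 1 of 2 weeks, and 39.6 to 43.7 in the other 4.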

How the results depend on the processing

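No paired analysis was possible because the labels carry no replicate numbers and numbers in accession order pair nothing. Every member has 1 gene identifier, so summing repeated names changed nothing. In NEBNext no alternative, leaving out single libraries included, turned the direction of Ccn1 or Ccn2 at 2 weeks. In QuantSeq, also at 2 weeks, that of Ccn1 did turn, as given below.

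The number of members called at 2 weeks (2) was 0 in pool KIUC033 alone and 0 to 3 with a library left out. With no filter on low counts it was 1 at 11 days, 2 for the difference of 2 weeks and 1 week (0 to 2 with a library left out), 1 in QuantSeq with cGas and 1 without. In QuantSeq with cGas it was also 1 with DESeq2, with no sex term and with only the groups compared, and 0 to 1 with a library left out. Of the YAP and TAZ target list (7 at 2 weeks, 1 in QuantSeq with cGas), 12 were called on log2(TPM + 1) and 0 in pool KIUC033; in QuantSeq 4 were called with DESeq2 and with no sex term, 3 with no filter, 2 with limma-voom, 2 without libraries rich in Sln and 1 to 4 with a library left out. Of the Hippo list (9 and 0), 2 were called in pool KIUC033, 4 without libraries rich in Sln and 4 to 9 with a library left out, and in QuantSeq 2 with DESeq2 and with no sex term and 0 to 2 with a library left out. The cause was not tested.

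Signs turned only for estimates that were not called. At 2 weeks, library totals gave 0.085 for Ajuba, 0.00686 for Amotl2, 0.035 for Tead4 and 0.23 for Yap1. Log2(TPM + 1) gave 0.10, 0.046, 0.055 and 0.26 for the same genes, and log2(TPM + 0.1) gave 0.15, 0.050, 0.066 and 0.27. Pool KIUC035 gave 0.018 for Ajuba, -0.076 for Lats2, -0.24 for Tead1, 0.32 for Tead4 and -0.052 for Wwtr1, and pool KIUC033 gave 0.14 for Amotl2 and 0.071 for Yap1. Lats2 was -0.058 with no sex and pool terms and Yap1 0.021 with only the groups compared. Without libraries rich in Sln, Lats2 was -0.33, Tead1 -0.24 and Wwtr1 -0.055 at 2 weeks, and Ccn1 0.060 and Vgll3 -0.025 in QuantSeq with cGas. With a library left out Lats2 ranged from -0.12 to 0.20, Tead1 from -0.16 to 0.18 and Yap1 from -0.079 to 0.044. At 11 days Ccn1 was 0.32 and Ccn2 0.68 without the wild-type libraries rich in Sln, and Tead4 ranged from -0.86 to 0.14. In QuantSeq, library totals gave 0.026 for Ccn1 with cGas, 0.088 for Ccn1 and 0.012 for Amotl2 without, and 0.019 for the difference on Ccn2. Ccn1 was 0.092 without cGas and 0.10 for cGas loss in F/+ with only the groups compared, and its difference was -0.073 with limma-voom and -0.0084 with no sex term. With a library left out Ccn1 ranged from -0.23 to 0.18 with cGas, -0.41 to 0.018 without, -0.29 to 0.16 for the difference and -0.34 to 0.037 for cGas loss in F/+, and the difference on Ccn2 from -0.43 to 0.26.

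Genes called in all ranged from 349 (pool KIUC033) to 5958 (log2(TPM + 1)) at 2 weeks against 4562, and without cGas from 7 (without F/+ cGas null replicate 3) to 515 (no filter) against 78. In QuantSeq with cGas they ranged from 190 (without F/+ cGas +/+ replicate 1) to 1183 (no filter) against 686, and at 11 days from 0 to 235 (without wild-type replicate 1). At 2 weeks 5 F/F libraries in 2 pools limit what can be said, at 11 days 2, and low counts limit Tead4 and Ajuba.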
